A study of Mus musculus with 5 samples.

Results

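The cells described here were spinal cord fibroblasts selected on their transcripts of Lcn2, Saa3, Cxcl5 and Draxin, found mainly in mice with experimental autoimmune encephalomyelitis (EAE), an autoimmune inflammation of the central nervous system used as a model of multiple sclerosis. A cell belonged to the set if it held at least 5 unique molecular identifiers (UMIs, counted transcript molecules) over Lcn2, Saa3, Cxcl5 and Draxin from at least 2 of these 4 genes. That sum also had to exceed the UMIs over Tnc, Cxcl9, Col7a1 and Cthrc1 and those over Igfbp3, Slc13a3, Wnt4 and Ranbp3l, and the cell needed at least 2 UMIs over the fibroblast genes Col1a1, Col1a2, Col3a1 and Dcn. Of 4678 cells in all, 625 met the rule. They were 493 cells of EAE 1, 124 of EAE 2, 7 of Healthy 1, 1 of Healthy 2 and 0 of Healthy 3.

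The series compared sorted Col1a1GFP+ cells of healthy cords (3 libraries) and cords with EAE (2 libraries), each measured with droplet-based 10x Genomics v2 single-cell RNA sequencing. All mice carried the Col1a1GFP reporter on a C57/BL6 background, and the groups differed in disease state; age, sex, the way EAE was induced and its day were not given in the sources used here. Because a collagen promoter drives the reporter and cells were sorted for it, cells that do not use that promoter were largely kept out of both groups. No label states that libraries came from separate animals, so the p-values measure the spread of these libraries alone, and that spread may be technical.

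Fibroblasts of the cord lie in the meninges and around blood vessels, and in EAE they gather in and around inflamed tissue. Lcn2 encodes lipocalin 2, a secreted protein that binds bacterial siderophores and so withholds iron, and Saa3 encodes a serum amyloid A, an acute phase protein of inflamed tissue. Cxcl5 is a chemokine that draws neutrophils, and Draxin is a secreted axon guidance protein. Acute phase genes are known chiefly from the liver, where interleukin 1 and interleukin 6 switch them on through NF-kappaB, Stat3 and C/EBP factors, and stromal cells can use the same programme.

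Total UMIs per library ran from 1588693 in Healthy 3 to 10775024 in EAE 1. Healthy 1 and Healthy 2 stood apart, because most of their kept barcodes also occurred in EAE 1 or in each other, and such a barcode was counted only where its UMI total was highest. This removed 1541 of 2265 kept barcodes from Healthy 1 and 683 of 1112 from Healthy 2, and the comparison with Healthy is given again without these libraries after its main values. The set's cells were deeper than the other fibroblasts, with median UMIs of 5745 and 6955.5 in EAE 1 and EAE 2 against 3643 and 4405. Doublets were not removed.

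Lcn2 and Saa3 lie on different chromosomes, Lcn2 at chr2:32384633-32388252 and Saa3 at chr7:46711998-46715700 (both on the minus strand, build mm10). Saa3 sits in a cluster with Saa4, Saa1 and Saa2 that spans 42.32 kb. The stretches upstream of these genes are shown because 2 of the genes chose the cells while the other 3, which the rule did not read, were among its largest rises. Each runs 5′ to 3′ on the gene's own strand from 250 to 81 bases before the RefSeq start (GRCm38.p6), and capitals mark the letters TTGCNNAA on either strand, a form of the C/EBP motif.
Lcn2, chr2:32387820-32387989, minus strand: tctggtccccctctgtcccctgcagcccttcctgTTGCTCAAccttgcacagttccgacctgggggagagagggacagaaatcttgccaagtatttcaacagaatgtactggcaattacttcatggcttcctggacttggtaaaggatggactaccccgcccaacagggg
Saa3, chr7:46715757-46715926, minus strand: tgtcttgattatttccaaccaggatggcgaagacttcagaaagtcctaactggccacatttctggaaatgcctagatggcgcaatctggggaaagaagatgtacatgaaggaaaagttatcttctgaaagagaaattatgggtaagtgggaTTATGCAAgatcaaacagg
Saa4, chr7:46732684-46732853, minus strand: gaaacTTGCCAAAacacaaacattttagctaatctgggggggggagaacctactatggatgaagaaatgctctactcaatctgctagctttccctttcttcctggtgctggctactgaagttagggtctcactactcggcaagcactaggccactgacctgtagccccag
Saa1, chr7:46743061-46743230, minus strand: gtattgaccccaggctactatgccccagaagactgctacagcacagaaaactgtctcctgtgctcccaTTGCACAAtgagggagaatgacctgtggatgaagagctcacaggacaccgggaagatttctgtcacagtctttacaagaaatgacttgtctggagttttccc
Saa2, chr7:46751583-46751752, plus strand: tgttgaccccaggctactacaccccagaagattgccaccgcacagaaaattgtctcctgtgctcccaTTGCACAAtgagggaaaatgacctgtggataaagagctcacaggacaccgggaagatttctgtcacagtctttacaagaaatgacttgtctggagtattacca
The Lcn2 stretch overlaps a coding exon of an alternative Lcn2 transcript in the annotation. All 5 windows of 250 bases held the motif, and Saa4 held another copy nearer its start, outside the part shown. Of 32851 such windows in the table, 9.564% held it. Of the 9 genes looked up, 7 were found, and neither Draxin nor Il1rn, the others found, held it. A loose form of the NF-kappaB motif was searched in the same windows too and is not marked above. It occurred upstream of Lcn2, Saa4, Saa1, Saa2, Draxin and Il1rn but not of Saa3. Of all windows in the table, 45.8% held that form. The windows of Saa1 and Saa2 were identical at 238 of 250 bases, so their matches are not independent. The genes are near copies of each other too, so UMIs may be split between them uncertainly.

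Among fibroblasts, the set made up 29.9% of 1650 cells in EAE 1 (exact binomial 95% interval 27.7 to 32.2) and 10.7% of 1156 in EAE 2 (9.001 to 12.7). The shares were 1.04% of 675 cells in Healthy 1 (0.418 to 2.12) and 0.256% of 391 in Healthy 2 (0.00647 to 1.42). In Healthy 3, 0 of 352 fibroblasts qualified, with an exact upper bound of 1.04%; the limit that a count of 0 allows, taken as 3 counts of the total, is 0.852%. The share was above that of each Healthy library in EAE 1 and in EAE 2, and these 2 lay apart from each other by more than counting error. The labels of EAE 2 and Healthy 3 carry a sequencing lane and the others do not, and EAE was above Healthy within each of these 2 batches. These shares are a description without a test, since readouts chose the cells and they were proposed as EAE cells with the results known. The intervals cover counting error only. With every deposited barcode counted, the share was 7.44% in Healthy 1 and 12.9% in Healthy 2, as the plot of shares by library shows.

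**Figure D1:**
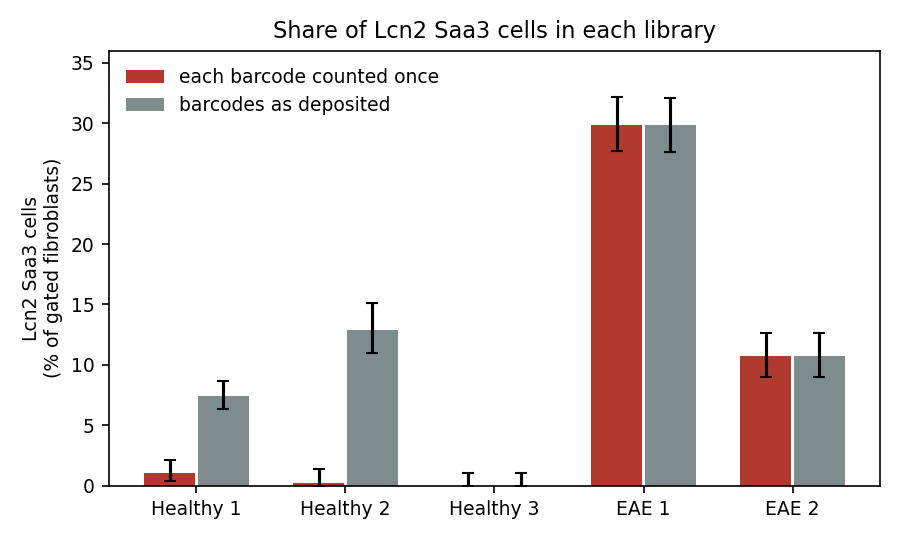
Cells of the Lcn2 Saa3 set as a percentage of gated fibroblasts (y axis) in each of the 5 libraries (x axis), with exact binomial 95% intervals as error bars. With each barcode counted once (red) the 3 Healthy libraries sit at or below 1.04% and the EAE libraries at 29.9% and 10.7%; counting barcodes as deposited (grey) lifts Healthy 1 and Healthy 2 to 7.44% and 12.9%.

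Depth and the wording of the rule moved the share without changing the order of the EAE libraries. With each cell thinned to 2000 UMIs it was 22.3% in EAE 1 and 6.65% in EAE 2. Asking for 10 UMIs in place of 5 gave 27.0% and 9.26%. At the threshold itself there were few cells: 6 cells of EAE 1 and 5 of EAE 2 held exactly 5 UMIs over the 4 genes, and 9 and 3 cells that met the other conditions held 4. Of the cells with collagen transcripts and at least 5 such UMIs, 697 in EAE 1 and 243 in EAE 2, the most frequent reason for exclusion was that all of them came from a single gene, in 128 and 96 cells.

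Most cells of the set were dominated by Saa3. The sum over the 4 genes had a median of 38 UMIs in EAE 1 (quartiles 19 and 109, highest 1003) and 32 in EAE 2 (15.75 and 80, highest 550). Saa3 was the leading gene in 361 cells of EAE 1 (73.2%) and 106 of EAE 2 (85.5%), and Lcn2 in 122 (24.7%) and 14 (11.3%). Cxcl5 led in 3 and 2 cells and Draxin in 1 and 0. All 4 genes were found together in 42 cells of EAE 1 and 4 of EAE 2, while 305 and 90 cells held exactly 2 of them.

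The levels that chose the cells are given as CPM, the UMIs of a gene per sum of cells by library, set to a common total with TMM factors, and carry no test. Lcn2 stood at 2891 and 1147 CPM in the set (EAE 1, EAE 2), at 126 and 32.4 in the other EAE fibroblasts, and at 213, 6.86 and 0 in the fibroblasts of Healthy 1, 2 and 3. Saa3 reached 11878 and 7040 CPM in the set, 969 and 776 in the other EAE fibroblasts, and 498, 39.5 and 0 in Healthy 1, 2 and 3. The set was thus highest for both genes, with Healthy 1 above Healthy 2 and Healthy 3 without a UMI. Cxcl5 was at 162 and 87.8 CPM in the set against 8.63 and 7.64, and Draxin at 62.2 and 51.6 against 14.6 and 9.17. In Healthy 1, 83.7% of the UMIs of the 4 genes came from its 7 qualifying cells. In EAE the set held 90.1% of these UMIs among fibroblasts of EAE 1 and 68.6% in EAE 2.

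**Figure D2:**
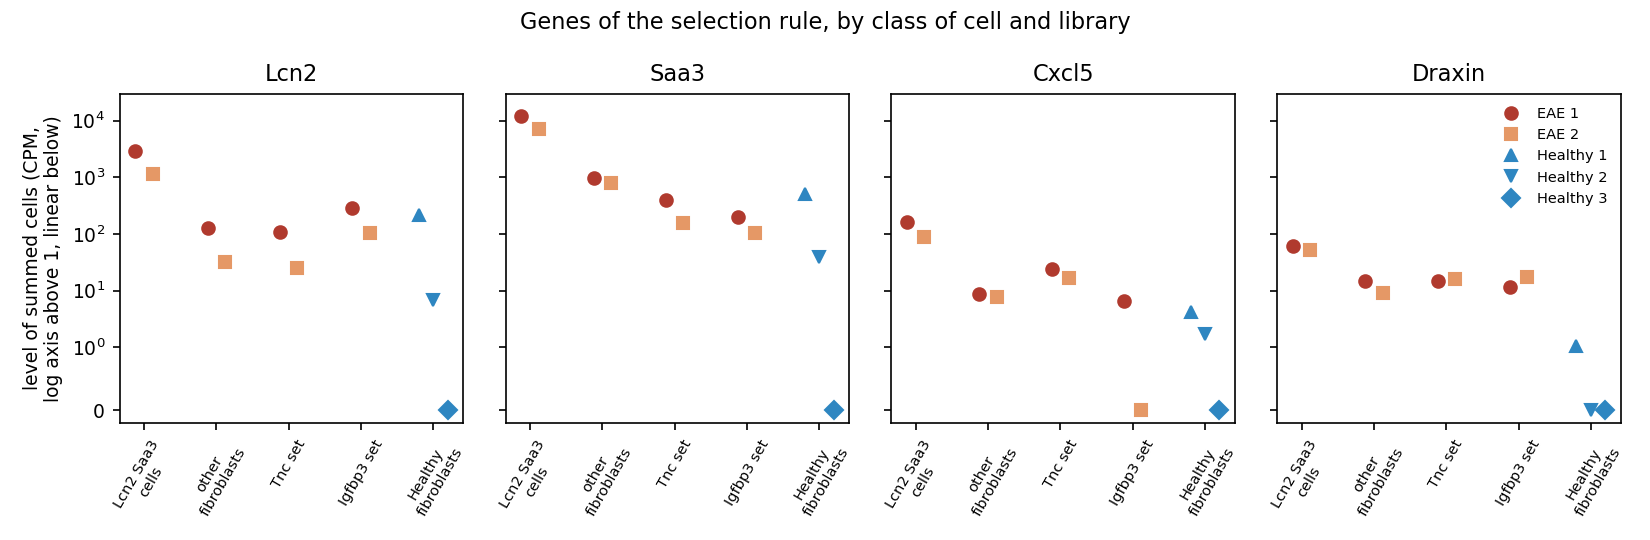
Levels in CPM (y axis, logarithmic above 1 and linear below) of Lcn2, Saa3, Cxcl5 and Draxin in summed cells of each class (x axis), with 1 point for each library. The set's cells are highest for each gene by the way they were chosen, and Healthy 3 lies at 0 for all 4 genes.

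Saa3 and Lcn2 UMIs also occurred outside the set. Cells passing a gate for mural genes carried at least 1 Lcn2 UMI in 22.95% of 61 cells in EAE 1 and 3.23% of 31 in EAE 2 (median UMIs 2923 and 5414). The other fibroblasts did so in 19.2% and 8.18% (median UMIs 3643 and 4405), below the mural share in EAE 1 and above it in EAE 2. Mural-gated cells that met the rule were counted in the set and not in these mural shares. Free RNA was not estimated, and the source of these UMIs was not tested. In the set the shares were 97.0% and 87.9%. For Saa3 the mural shares were 47.5% and 9.68%, against 52.0% and 29.1% of other fibroblasts and 99.0% and 96.8% of the set. Among all cells passing the mural gate, 5 of 65 in EAE 1 (7.69%) and 2 of 33 in EAE 2 (6.06%) held at least 5 UMIs from 2 of the 4 genes. Among cells passing the endothelial gate these were 8 of 14 in EAE 1 (57.1%, exact interval 28.9 to 82.3) and 3 of 17 in EAE 2 (17.6%, 3.80 to 43.4), and 4 and 2 of these cells belonged to the set. Of cells passing the immune gate 5 of 140 in EAE 1 and 0 of 32 in EAE 2 (exact upper bound 10.9%) did so, and of the 88 cells passing the erythroid gate in EAE 1 5 did.

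The label of the cells as fibroblasts was checked against 12 fibroblast markers that the rule did not use, and all 12 were detected. Their summed level was 4510 and 4604 CPM in the set against 4683 and 4431 CPM in the other EAE fibroblasts. Pdgfra and Pdgfrb, receptors for platelet-derived growth factor that mark fibroblasts, stood at 354 and 331 CPM and at 266 and 253 CPM in the set. The difference from the other EAE fibroblasts did not pass the test for either (log2 fold change 0.34, SE 0.13, edgeR adjusted p = 0.122 for Pdgfra and 0.28, SE 0.14, adjusted p = 0.302 for Pdgfrb). Lcn2 is also abundant in neutrophils. The neutrophil list summed to 53.8 and 20.6 CPM in the set and 13.1 and 9.17 CPM in the other fibroblasts. Of its 12 markers 7 and 5 were detected in the set (EAE 1, EAE 2), against 8 and 6 in the other fibroblasts. Ly6g, Ngp, Retnlg, Mpo and Elane were at 0 in the set of both libraries, but Ly6g and Retnlg were so in the other fibroblasts too. Ltf was detected in the set of EAE 1 and not in the other fibroblasts. The single neutrophil marker that could be tested, the collagenase Mmp8, was called higher. Monocyte, macrophage and dendritic markers summed to 32.1 and 24.8 CPM against 30.4 and 49.9. Of these 16 markers 14 and 8 were detected in the set, against 13 and 12 in the other fibroblasts. Mrc1 was at 0 in both classes of both libraries, and Ptprc at 0 in the set of EAE 1. Pericyte or smooth muscle markers summed to 214 and 418 CPM in the set against 238 and 175 CPM in the other fibroblasts, so in EAE 2 the set was higher; Myh11 and Pln were at 0 in the set there. Of 8 such markers tested none was called higher and 1, Cspg4, lower. Endothelial markers summed to 269 and 229 CPM against 278 and 265. Cells passing a gate for another cell type stayed in the set but were taken out of the other fibroblasts, so these sums compare classes gated differently. In EAE 1 and EAE 2, 479 and 120 cells of the set passed no such gate, and the sums were not made for these alone. The part of these cell types, and of doublets, in the results was not tested.

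Against the other EAE fibroblasts, acute phase genes were higher in 11 of 16 tested, glycolysis and hypoxia genes in 12 of 21 and cell cycle genes in 11 of 19, while barrier junction genes were lower in 6 of 16. The comparison used genes that the rule did not read: the 16 genes of the rule were left out, but the cells are those the rule chose. Of 10064 genes tested, 339 (3.37%) were higher and 329 (3.27%) lower at an edgeR adjusted p under 0.05. The other fibroblasts exclude the cells in which the Tnc or Igfbp3 genes led.

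Acute phase genes had the highest share of higher calls among the 26 lists examined. Of 26 genes on the list 16 passed the filter on low counts, and 11 of them were higher and 1 lower. Their median log2 fold change was 1.32, beside -0.015 over all genes tested. Saa4, which in the liver is made constantly rather than on demand, was at 64.8 and 48.5 CPM in the set and 3.87 and 1.02 CPM in the other EAE fibroblasts, and no UMI of it was seen in any Healthy library. Its log2 fold change was 4.49 (SE 0.33, edgeR adjusted p = 1.62e-08). Saa2, a serum amyloid A carried on lipoprotein, was at 259 and 156 CPM against 30.4 and 15.8 (log2 fold change 3.15, SE 0.18, adjusted p = 1.7e-09). Saa1 was at 699 and 452 CPM against 181 and 70.8 (2.26, SE 0.21, adjusted p = 1.03e-04). For all 3 genes both EAE values of the set lay above both values of the other fibroblasts, and for Saa2 the Healthy 1 level of 104 CPM lay between them. The largest rises and falls were named only with the same direction in both libraries, so that agreement is no added evidence. By DESeq2 Saa1 had the same direction with an adjusted p of 0.0762.

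Haptoglobin, which binds free haemoglobin, also rose. Hp was at 125 and 148 CPM in the set, 22.6 and 16.6 CPM in the other fibroblasts, and 2.08, 6.86 and 2.75 CPM in Healthy 1, 2 and 3 (log2 fold change 2.74 against the other fibroblasts, SE 0.21, edgeR adjusted p = 3.81e-07). Serpina3n, a secreted protease inhibitor, was at 119 and 129 CPM against 33.6 and 25.5 (log2 fold change 2.01, SE 0.19, adjusted p = 2.52e-06). Neither gene's values overlapped between the classes, though both were named on the condition of the same direction in both libraries. Fgb, a fibrinogen chain usually made by the liver, was called higher at 28.4 and 33.0 CPM against 6.25 and 3.06. Slc39a14, which imports zinc and iron, was called higher at 247 and 124 CPM against 76.8 and 59.4. Ceruloplasmin, the copper-carrying ferroxidase, showed a smaller rise, with Cp at 2055 and 2216 CPM against 1370 and 1268. Pltp, a phospholipid transfer protein, was the 1 gene of the list called lower, at 315 and 552 CPM against 525 and 976 (log2 fold change -0.81, SE 0.13, adjusted p = 0.000462).

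**Figure D3:**
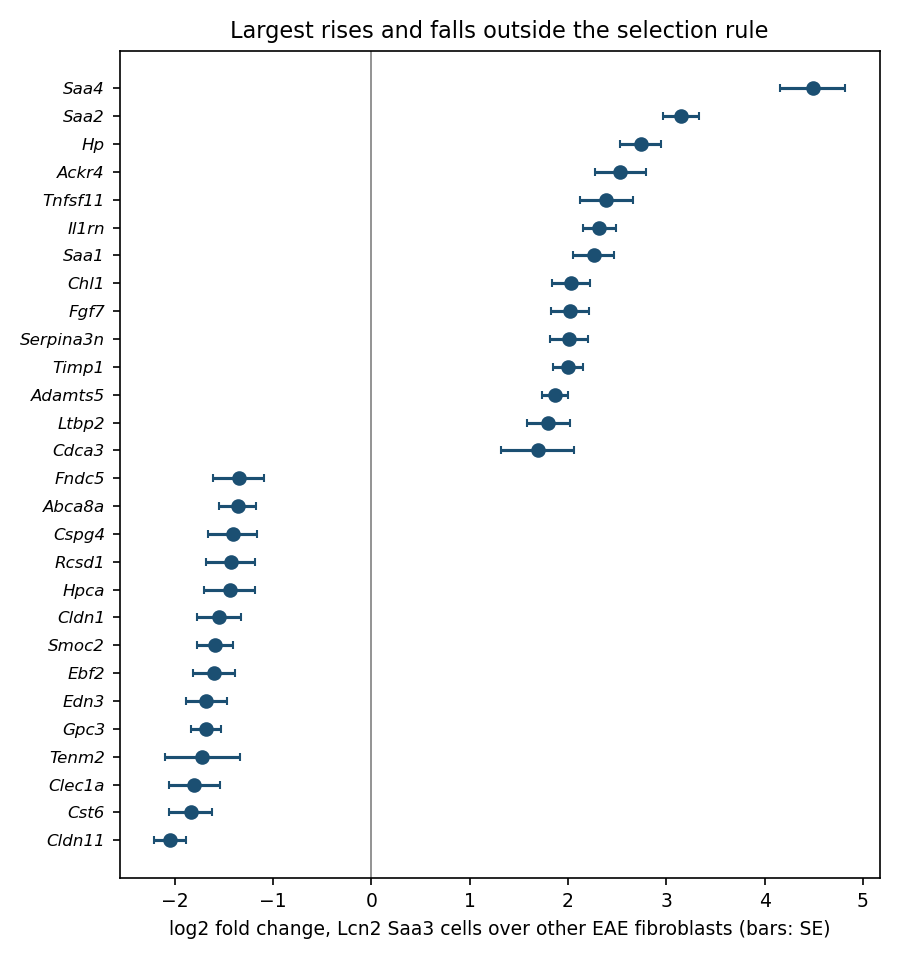
Log2 fold change (x axis, bars are the standard error) of the 14 largest rises and the 14 largest falls among genes outside the rule, for the Lcn2 Saa3 set over the other EAE fibroblasts. Saa4 lies farthest to the right at 4.49 and Cldn11 farthest to the left at -2.05.

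Among secreted signals, Il1rn and Tnfsf11 rose. Il1rn encodes the natural antagonist of the interleukin 1 receptor and was at 114 and 115 CPM in the set, 26.8 and 18.1 CPM in the other fibroblasts, and 9.38, 6.86 and 4.12 CPM in the Healthy libraries (log2 fold change 2.32 against the other fibroblasts, SE 0.17, edgeR adjusted p = 1.46e-08). Tnfsf11, the ligand RANKL of the TNF family, was at 46.8 and 28.9 CPM against 10.1 and 3.82 (2.39, SE 0.27, adjusted p = 4.95e-06). Both were named on the condition that the set lay above the other fibroblasts in both libraries. Of the 12 tested genes among stromal cytokines and colony stimulating factors, 4 were higher, adding Csf3, which drives neutrophil production, and Mif, and Il34 was lower. Cells with an Il1rn UMI were 24.9% and 16.9% of the set, 6.67% and 5.28% of the other fibroblasts and 0% of the mural-gated cells in both libraries.

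Among chemokines and their receptors, 3 of 17 tested were higher and none lower. Ackr4, a scavenger receptor that removes chemokines, was at 41.1 and 31.0 CPM against 6.55 and 5.61 (log2 fold change 2.53, SE 0.26, edgeR adjusted p = 1.34e-06). Cxcl1 was at 760 and 719 CPM against 306 and 505 (0.87, SE 0.16, adjusted p = 0.00262) and Cxcl2 at 148 and 183 CPM against 59.2 and 130 (0.88, SE 0.17, adjusted p = 0.00349); both attract neutrophils, as Cxcl5 does. With the highest 5% of UMI counts left out, Cxcl2 was not called (adjusted p = 0.423). In the Healthy libraries Cxcl1 was at 824, 344 and 237 CPM, a range that spans the values of the set. Ccl2, which attracts monocytes, was at 483 and 818 CPM in the set against 235 and 339, and did not pass (1.13, SE 0.45, adjusted p = 0.333). Il6 was at 84.6 and 98.1 CPM against 10.4 and 53.3 and did not pass either (1.67, SE 0.63, adjusted p = 0.312), although after thinning each cell to 2000 UMIs its adjusted p was 2.99e-07.

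Of the receptors for inflammatory cytokines, 4 of 16 tested were higher and none lower. Il1r1, the signalling receptor for interleukin 1, was at 173 and 164 CPM in the set, 78.3 and 86.1 CPM in the other fibroblasts and 24.7 to 28.3 CPM in the Healthy libraries (log2 fold change 1.04 against the other fibroblasts, SE 0.14, edgeR adjusted p = 7.55e-05). Il17ra, part of the receptor for interleukin 17, was at 49.5 and 41.3 CPM against 19.4 and 31.6 (0.89, SE 0.21, adjusted p = 0.0112; by DESeq2 adjusted p = 0.253). Il4ra was at 47.5 and 43.4 CPM against 17.3 and 20.9 (1.19, SE 0.22, adjusted p = 0.00146). Each had both of its EAE values in the set above those of the other fibroblasts. Slc22a17, a cell surface receptor for lipocalin 2, did not pass the test, at 24.7 and 21.7 CPM against 30.7 and 25.7 (-0.24, SE 0.24, adjusted p = 0.643).

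Lists tied to the factors that switch on acute phase genes in the liver were examined too. Over all genes tested 3.37% were higher and 3.27% lower, and the activity of these factors was not tested. Of 21 NF-kappaB regulators and targets 4 were higher and none lower, led by Sod2, the mitochondrial superoxide dismutase, at 423 and 285 CPM against 123 and 95.3 (log2 fold change 1.65, SE 0.15, edgeR adjusted p = 2.81e-07). The others were Tnfaip2, Zc3h12a and Bcl3, and DESeq2 did not call Zc3h12a (adjusted p = 0.51). Of 18 genes of the C/EBP and Stat3 axis 1 was higher, the cytokine Lif, and 1 was lower, the AP-1 subunit Junb. The list's median log2 fold change was 0.09. Interferon-induced genes had 3 of 30 higher (median log2 fold change 0.31), and 1 of 19 genes of MHC class I presentation was higher.

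In the extracellular matrix the set had more of some remodelling genes. Timp1, an inhibitor of matrix metalloproteinases, was at 2987 and 1240 CPM in the set, 684 and 323 CPM in the other fibroblasts and 104, 30.03 and 4.12 CPM in the Healthy libraries (log2 fold change 2.00 against the other fibroblasts, SE 0.15, edgeR adjusted p = 4.13e-07). Adamts5, which cleaves the proteoglycan aggrecan, was at 302 and 257 CPM against 80.7 and 70.1 (1.87, SE 0.13, adjusted p = 4.07e-09). With Mmp8 these were the 3 of 23 proteases and inhibitors called higher, and none was lower. Fgf7, a growth factor for epithelial cells, was at 70.5 and 68.1 CPM against 17.0 and 16.1, and Ltbp2, an elastic fibre protein of the latent TGF-beta binding family, at 116 and 82.6 CPM against 35.4 and 20.1. Their log2 fold changes were 2.02 (SE 0.19, adjusted p = 3.81e-07) and 1.80 (SE 0.22, adjusted p = 8.05e-05). Chl1, a neural cell adhesion molecule, was higher too, at 75.5 and 69.2 CPM against 20.8 and 13.8 (2.03, SE 0.19, adjusted p = 5.42e-07).

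Fibrillar collagens and matrix genes went both ways, with 6 higher and 3 lower of 31 and a median log2 fold change of -0.02. Col12a1, a collagen of fibril surfaces, was higher (1.13, SE 0.18, edgeR adjusted p = 0.00029), and so was fibrillin Fbn1 (0.71, SE 0.13, adjusted p = 0.00112). Periostin, a matricellular protein of scars, was lower, with Postn at 29.8 and 25.8 CPM against 45.6 and 51.7. Of 15 basement membrane genes 3 were lower and none higher: Col18a1 at 300.2 and 320.1 CPM against 514 and 653, Nid1, which links laminin to collagen, at 364 and 410 CPM against 527 and 742, and Lamc1. By DESeq2 Postn and Lamc1 were not called (adjusted p = 0.149 and 0.247).

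Several genes of barrier junctions and meningeal transporters were lower than in the other EAE fibroblasts. Of 16 tested, 6 were lower and 1 higher, with a median log2 fold change of -0.67. Cldn11, a claudin that seals the arachnoid barrier and myelin, was at 39.1 and 28.9 CPM in the set and 142 and 145 CPM in the other EAE fibroblasts, and at 26.1, 61.8 and 50.8 CPM in Healthy 1, 2 and 3 (log2 fold change -2.05 against the other fibroblasts, SE 0.16, edgeR adjusted p = 3.08e-08). The set overlapped the Healthy range, and both lay below the other EAE fibroblasts. Cldn1, a further tight junction claudin, was at 15.7 and 13.4 CPM against 45.9 and 38.2 (-1.55, SE 0.22, adjusted p = 7.98e-05). Gap junction genes moved in opposite directions. Gjb6 was lower at 79.6 and 48.5 CPM against 180.4 and 112 and Gjb2 at 117 and 63.0 against 182 and 149, while Gja1 was higher at 369 and 310 CPM against 235 and 256 (0.44, SE 0.13, adjusted p = 0.0436; by DESeq2 adjusted p = 0.242).

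The set also had less of several genes of the healthy cord's fibroblasts than the other EAE fibroblasts had. Gpc3, a glypican of the cell surface, was at 95.3 and 174 CPM in the set, 365 and 439 CPM in the other EAE fibroblasts and 1156 to 1324 CPM in the Healthy libraries (log2 fold change -1.68 against the other fibroblasts, SE 0.15, edgeR adjusted p = 1.96e-07). Smoc2, a matricellular protein, was at 62.5 and 57.8 CPM against 216 and 127, and at 707 to 1317 CPM in Healthy (-1.59, SE 0.18, adjusted p = 7.77e-06). For both genes the set lay below the other EAE fibroblasts and Healthy was highest of these groups. The order of the EAE classes in both libraries was a condition of naming them. Of the 11 tested genes on a list of healthy cord fibroblast genes, 6 were lower and none higher (median -1.01). That list was drawn up with these libraries known, so it is not independent evidence of a direction. Among the other large falls were Edn3, an endothelin (-1.68, SE 0.21), Cst6, a protease inhibitor (-1.84, SE 0.22), Clec1a, a C-type lectin receptor (-1.80, SE 0.26), and Ebf2, a transcription factor (-1.60, SE 0.21).

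Of 22 axon guidance and neurotrophic genes 6 were lower and none higher, with a median log2 fold change of -0.33. Sema3b, a secreted semaphorin, was at 7.02 and 8.26 CPM against 28.6 and 15.5 (-1.72, SE 0.30, edgeR adjusted p = 0.00085), and the list also held the netrin Ntn1 (-0.91) and the neurotrophin receptor Ngfr (-1.23), both without a call by DESeq2 (adjusted p = 0.36 and 0.33). Of 26 Wnt and BMP genes 4 were lower and 2 higher. Wnt2, a Wnt ligand, was at 6.02 and 3.10 CPM against 20.2 and 18.3, and the Wnt antagonist Sfrp4 was called higher at 626 and 380 CPM against 365 and 259 (0.66, SE 0.15), a direction that turned when the cluster holding more of the set than any other was left out (-0.109, edgeR adjusted p = 0.89). Of 19 meningeal transcription factors 5 were lower, among them Foxc2, Foxd1 and Foxp2, and 1, Hoxc8, was higher; DESeq2 called none of these 4.

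**Figure D4:**
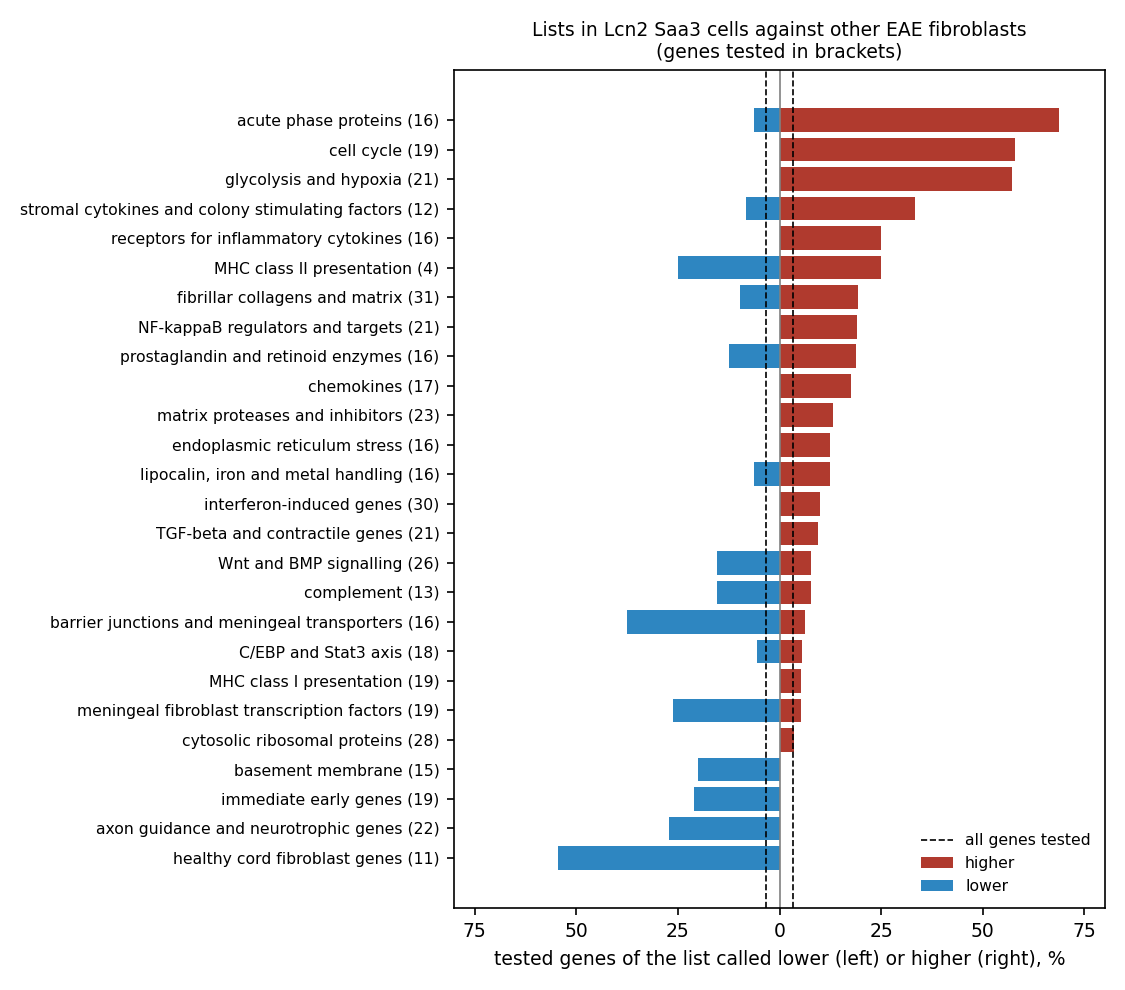
Percentage of each list's tested genes (number in brackets) called higher (right, red) or lower (left, blue) in the Lcn2 Saa3 set against the other EAE fibroblasts at an edgeR adjusted p under 0.05, with dashed lines at the 3.37% and 3.27% of all genes tested. Acute phase, cell cycle and glycolysis lists reach farthest to the right and the healthy cord and barrier lists farthest to the left.

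The counts of cell cycle and glycolysis genes moved with the setting. Of 19 cell cycle genes 11 were higher (median log2 fold change 1.55). Mki67, a proliferation marker, was at 23.7 and 8.26 CPM against 5.06 and 3.06 (2.05, SE 0.36, edgeR adjusted p = 0.000848), and Top2a, which untangles DNA in dividing cells, at 49.5 and 23.8 CPM against 18.2 and 4.84. The count was 2 of 11 by DESeq2, 3 of 8 after thinning to 2000 UMIs, and 3 of 16 with the highest 5% of UMI counts left out. It was larger, 17 of 20, with the set and the other fibroblasts fitted alone. List sizes by DESeq2, here and below, count only genes to which it gave an adjusted p. Higher calls over all genes were 107 of 10064 by DESeq2 and 241 of 8967 without the highest counts. They were 655 of 11170 with both classes fitted alone and 163 of 5807 after thinning to 2000 UMIs. After that thinning, cells with at least 2 UMIs over 6 cycling genes were 5.92% of 490 cells of the set in EAE 1 (4.00 to 8.39) and 3.36% of 119 in EAE 2 (0.923 to 8.38). In the other fibroblasts they were 1.86% and 0.893%, and without thinning 11.6% and 10.5% of the set against 3.14% and 1.89%. Thinning left out 3 and 5 cells of the set and 44 and 123 of the other fibroblasts for being too shallow. At 2000 UMIs the intervals of the set and the other fibroblasts overlapped in EAE 2. With cells thinned to 1000 UMIs they overlapped in both libraries. There the set had 2.23% (1.12 to 3.96) against 1.01% (0.435 to 1.97) in EAE 1. In EAE 2 it had 1.63% (0.198 to 5.75) against 0.669% (0.218 to 1.56).

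Of 21 glycolysis and hypoxia genes 12 were higher and none lower (median 0.53). Ldha, lactate dehydrogenase, was at 840 and 552 CPM against 385 and 261 (1.08, SE 0.13, edgeR adjusted p = 1.18e-05), and Pfkfb3, an activator of glycolysis, at 26.4 and 24.8 CPM against 6.85 and 12.5 (1.45, SE 0.27, adjusted p = 0.00132). Hif1a, the hypoxia-induced regulator of glycolysis, stood at 256 and 173 CPM against 115 and 112. By DESeq2 4 of 19 were called, after thinning 5 of 17, and with both classes fitted alone 14 of 22. The set's greater depth moved with these lists, and its part in them beyond the thinned counts was not tested.

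Beside the genes given above, DESeq2 did not call Bcl3, Il34, Junb or Sfrp4 (adjusted p = 0.243, 0.418, 0.157 and 0.0647). After thinning to 2000 UMIs, Bcl3, Zc3h12a, Il34, Postn, Lamc1, Ntn1, Foxc2, Foxd1, Foxp2 and Hoxc8 were not called by edgeR (adjusted p 0.0523 to 0.632). With the highest 5% of UMI counts left out the same held for Fgb (adjusted p = 0.173), Tnfaip2 (0.168), Lif (0.38), Il34 (0.113), Lamc1 (0.0535), Ntn1 (0.0783) and Foxp2 (0.0602). Ngfr was lost with 10 UMIs asked of the set (adjusted p = 0.0859) and Gja1 with library totals (0.0685).

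The library served as a block in this comparison, since each class came from both libraries; without it 5 genes were higher and 1 lower, and the acute phase and barrier lists kept 1 call each. Of the 28 genes in the plot of largest rises and falls, DESeq2 did not call Saa1, Hpca and Fndc5, and thinning kept the call of each of the 25 that could be refitted. DESeq2 called 107 genes higher and 56 lower in all, so that 65.64% of its calls were higher against 50.75% by edgeR. Among the lists, DESeq2 called 6 of 14 acute phase genes higher, 2 of 12 cytokine receptors and 1 of 26 interferon-induced genes; it called 2 of 15 axon guidance genes and 2 of 6 healthy cord genes lower.

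Within the set, the leading gene went with different levels of other genes. In EAE 1 the 361 cells led by Saa3 held 822 CPM of Saa1, 311 of Saa2, 146 of Hp and 131 of Il1rn, as plain CPM of summed cells. The 122 cells led by Lcn2 held 322, 105, 51.3 and 49.96 CPM of the same genes. Timp1 was at 2676 CPM in the Saa3-led cells and 3609 in the Lcn2-led cells, and Apod, an apolipoprotein abundant in fibroblasts, at 12535 and 6156. Igf1, a growth factor, ran the other way at 1594 and 2582 CPM, as did Il6 at 53.1 and 141 CPM. Both subsets had similar depth, with median UMIs of 5822 and 5717.5. They come from 1 library, since EAE 2 held only 14 Lcn2-led cells, so no test was possible.

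Clustering of all cells without the 16 genes of the rule did not gather the set in a single cluster. Cluster 8, of 305 cells, held more of them than any other cluster, 201 cells of EAE 1 (40.8% of the set there) and 32 of EAE 2 (25.8%), against 4.91% and 1.01% of the other fibroblasts. Its leading genes were Chl1, Hp, Ltbp2, Slc39a14, Serpina3n, Adamts5, Fgf7, Il1rn, Saa2 and Sfrp4. Cluster 3, led by Timp1 and Birc5, held 17.0% and 16.9% of the set. Cluster 1, led by Inmt and Scgb1a1, held 11.6% and 14.5%. Cluster 0, led by Zswim6 and Lsp1, held 25% of the set in EAE 2 and 0.203% in EAE 1, while cluster 5, led by Eln and Npy1r, held 0.806% and 12.4%. The same clusters split the other fibroblasts by library, with cluster 0 holding 48.9% of them in EAE 2 and 1.01% in EAE 1.

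**Figure D5:**
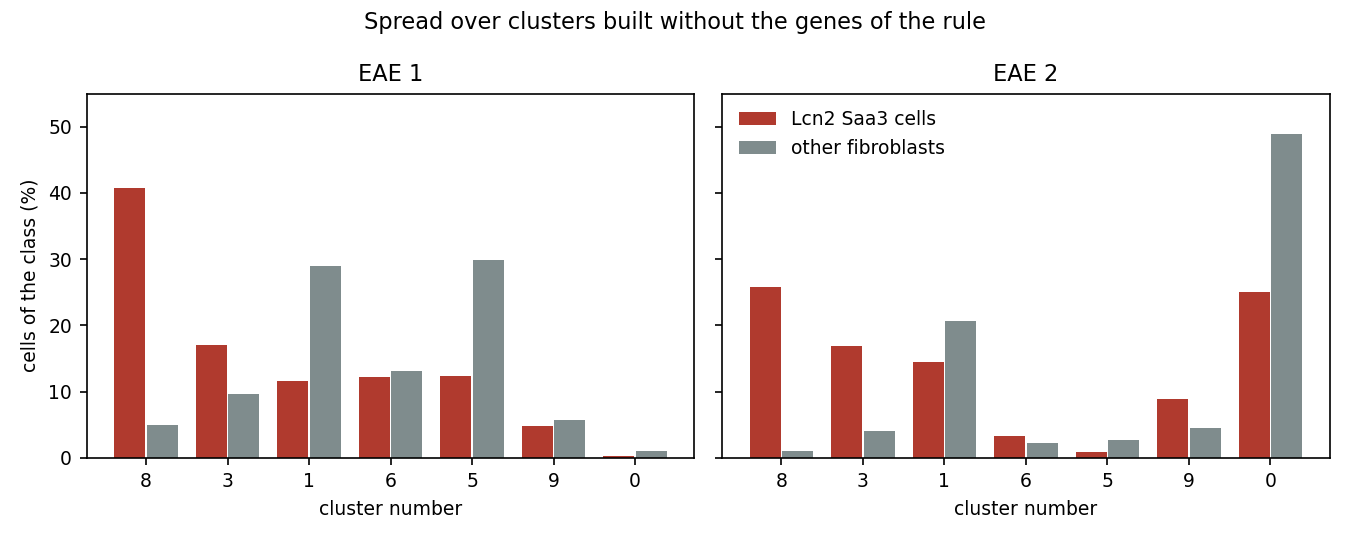
Percentage of cells of the Lcn2 Saa3 set (red) and of the other fibroblasts (grey) that fell in each cluster (x axis, cluster number) in EAE 1 and EAE 2, for the clusters with at least 10 cells of the set. Cluster 8 holds 40.8% and 25.8% of the set, and clusters 0 and 5 differ between the libraries in both classes.

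Among the 15 nearest neighbours of a cell of the set, 59.6% in EAE 1 and 27.5% in EAE 2 also belonged to it. Around the other fibroblasts the figures were 17.4% and 6.31%, and the set's overall shares of fibroblasts were 29.9% and 10.7%. With cluster 8 left out of both classes, an alternative chosen after seeing the data, 247 genes were higher and 157 lower than in the other EAE fibroblasts. Acute phase genes then had 10 higher and 1 lower of 16, cell cycle genes 14 of 20 higher, glycolysis genes 7 of 21 higher, cytokine receptors 2 of 16 higher, and healthy cord genes 3 of 13 lower. Of the 100 genes named by rule in this comparison, 27 lost their call and 1, Sfrp4, turned. Among the large changes in the plot, Tenm2 and Cspg4 lost theirs (adjusted p = 0.126 and 0.0578 by edgeR). Il17ra fell to a log2 fold change of 0.46 (adjusted p = 0.353) and Gja1 to 0.13 (adjusted p = 0.697). Bcl3 (adjusted p = 0.369), Zc3h12a (0.0609), Csf3 (0.0759), Il34 (0.24), Postn (0.159), Lamc1 (0.106), Pfkfb3 (0.0578), Ngfr (0.197), Ntn1 (0.129), Foxd1 (0.123) and Foxp2 (0.156) were not called either.

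Next to the cells led by Tnc, Cxcl9, Col7a1 and Cthrc1 (157 in EAE 1 and 140 in EAE 2), the set had far more serum amyloid A and less of periostin. Of 10064 genes, 588 (5.84%) were higher and 382 (3.8%) lower by edgeR. Saa1 was at 699 and 452 CPM against 9.12 and 0.677 (log2 fold change 7.0, SE 0.36), Saa2 at 259 and 156 against 4.14 and 5.41 (5.36, SE 0.29), and Saa4 at 64.8 and 48.5 against 3.32 and 0 (5.13, SE 0.47). F5, coagulation factor V, was at 39.1 and 43.4 CPM against 1.66 and 2.03 (4.35, SE 0.41). Dpep1, a membrane dipeptidase, was at 92.3 and 79.5 CPM against 6.63 and 3.38 (4.08, SE 0.29), and Rbp4, which carries retinol, at 549 and 414 against 47.2 and 20.3 (3.88, SE 0.38). Acute phase genes were higher in 12 and lower in 2 of 16 tested (median 1.59), complement genes higher in 5 and lower in none of 13, and C/EBP and Stat3 axis genes higher in 6 of 18. Some lists that ran lower against the other EAE fibroblasts ran higher here. Healthy cord genes were higher in 7 and lower in none of 11 (median 2.25). Barrier junction genes were higher in 7 and lower in 1 of 16 (0.96), and immediate early genes higher in 10 and lower in 1 of 19 (0.68).

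Lower in the set than in the Tnc-led cells were Ubd, a ubiquitin-like protein induced by interferon, at 12.4 and 5.16 CPM against 129 and 13.5 (log2 fold change -3.12, SE 0.31), and Dkk2, a secreted Wnt regulator, at 3.34 and 12.4 against 48.9 and 47.4 (-2.96, SE 0.36). Wnt2 (-2.84, SE 0.40), the neuronal tubulin gene Tubb3 (-2.31, SE 0.25) and the Notch target Heyl (-2.10, SE 0.35) were lower too. Postn was at 29.8 and 25.8 CPM against 152 and 186 (-2.53, SE 0.17). Fibrillar collagen and matrix genes were lower in 11 and higher in 6 of 31. Timp1, high in the set relative to the other fibroblasts, did not differ beyond the threshold here (-0.15, SE 0.15, edgeR adjusted p = 0.611), and cycling cells made up 10.3% and 7.19% of the Tnc-led class after thinning to 2000 UMIs.

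Next to the cells led by Igfbp3, Slc13a3, Wnt4 and Ranbp3l (205 and 97), 439 genes (4.36%) were higher and 496 (4.93%) lower by edgeR. Saa4 had 241 UMIs in the set and 1 in these cells, a ratio of levels of 92.6 with an exact 95% counting interval of 16.5 to 3673. Ccl11, a chemokine for eosinophils, was at 184 and 299 CPM against 3.78 and 5.26 (log2 fold change 5.75, SE 0.75, adjusted p = 0.0139), and Spp1, osteopontin, at 1741 and 2372 against 90.8 and 31.6 (5.03, SE 0.62, adjusted p = 0.0314). Saa1 (5.48, SE 0.34), Saa2 (4.92, SE 0.31) and Il1rn (4.51, SE 0.33) completed the 6 largest rises. Spp1 was not called with no filter on low counts (adjusted p = 0.0587). The falls included Asgr1, a glycoprotein receptor best known from the liver, at 10.7 and 4.13 CPM against 86.0 and 118 (-3.49, SE 0.30), and Ramp1, a partner of the receptor for calcitonin gene-related peptide, at 9.69 and 12.4 against 109 and 54.4 (-3.12, SE 0.30). The transcription factor genes Prdm6 (-3.39, SE 0.41) and Creb5 (-2.68, SE 0.35) were also lower, the latter without a call when the highest 5% of UMI counts were left out (adjusted p = 0.0814). Axon guidance genes were lower in 9 and higher in 1 of 22, and acute phase genes higher in 12 and lower in 1 of 16.

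Against the fibroblasts of healthy cords, the set of EAE showed a gain of acute phase, interferon and antigen presentation genes and a loss of healthy cord genes. Of 9530 genes 992 (10.4%) were higher and 1006 (10.6%) lower by edgeR, with batch (labels with and without a sequencing lane) as a term. Beside it, the other EAE fibroblasts had 560 higher (5.64%) and 554 lower (5.58%) of 9930. Both comparisons use the same Healthy sums, so their values are given side by side and their overlap is not.

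Acute phase genes were higher in 10 and lower in 1 of 15 tested in the set (median log2 fold change 3.40), and in 6 and 1 of 13 in the other EAE fibroblasts (0.96). Saa4 had 241 UMIs in the set and 0 in the Healthy libraries, at least 75-fold higher against a floor of 3 counts over the Healthy group; DESeq2 did not call it (adjusted p = 0.244). Hp had a log2 fold change of 5.09 (SE 0.36) in the set and 2.38 (SE 0.43) in the other EAE fibroblasts. Serpina3n had 2.58 (SE 0.26) in the set and 0.56 in the others, the latter not past the threshold (edgeR adjusted p = 0.178). Saa1 had 3.40 (SE 0.46, adjusted p = 0.00439) in the set. Saa2 did not pass in the set (2.74, SE 1.25, adjusted p = 0.285), with Healthy 1 at 104 CPM and Healthy 2 and 3 at 8.58 and 12.4. The difference between the 2 classes in these genes is the comparison with the other EAE fibroblasts.

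Il1rn had a log2 fold change of 4.16 (SE 0.30) over Healthy in the set and 1.88 (SE 0.34) in the other EAE fibroblasts. Tnfsf11 had 168 UMIs in the set and 3 in Healthy, a ratio of levels of 52.3 (counting interval 17.6 to 256). Il1r1 had 2.67 (SE 0.22) in the set and 1.62 (SE 0.22) in the others. C3, the central complement protein, was at 409 and 460 CPM in the set and 558 and 413 in the other EAE fibroblasts, against 94.8, 18.0 and 2.06 CPM in Healthy 1, 2 and 3. It did not pass in the set (4.21, SE 1.65, edgeR adjusted p = 0.249), nor did Ccl2 (1.42, SE 0.98, adjusted p = 0.444), Il6 (1.92, SE 0.79, adjusted p = 0.194), Cxcl1 (0.92, SE 0.53, adjusted p = 0.311) or Timp1 (6.29, SE 1.07, adjusted p = 0.0589). For each of these 5 genes Healthy 1 was the highest of the Healthy libraries.

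Interferon-induced genes were higher in 18 of 27 tested in the set (median 1.40) and 13 of 28 in the other EAE fibroblasts (1.05), none lower in either. MHC class I genes were higher in 11 and 8 of 19. Cell cycle genes were higher in 15 and lower in 1 of 18 in the set and higher in 3 of 11 in the others. Low counts were filtered within each comparison, so a gene near 0 in Healthy was tested only where the EAE class was high. The cell cycle counts thus rest on different genes, and 15 of 18 cannot be set against 3 of 11. Pdgfrb was higher in both classes, with 1.22 (SE 0.20) and 0.90 (SE 0.19), while Pdgfra did not pass in the set (0.33, SE 0.20, edgeR adjusted p = 0.261).

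The other EAE fibroblasts shared the direction of the largest rises over Healthy. Aqp1, a water channel, was at 316 and 298 CPM in the set, 146 and 149 in the other EAE fibroblasts and 7.30, 2.57 and 0 in Healthy (log2 fold change 6.80, SE 0.57, in the set). C6, a component of the membrane attack complex, was at 70.5 and 98.1 CPM in the set and 42.9 and 56.1 in the others, with 3 UMIs in Healthy (ratio of levels 95.3, counting interval 32.3 to 464.5). Kng1, kininogen, had 5.83 (SE 0.45) and Lgi2, a secreted leucine-rich repeat protein, 5.23 (SE 0.37). F5 had 159 UMIs in the set and 3 in Healthy (ratio 49.5, counting interval 16.6 to 243). With the barcodes counted as deposited, Aqp1, C6, Kng1, F5 and Lgi2 kept their direction without passing the threshold (adjusted p 0.0804 to 0.344), and DESeq2 did not call F5 (adjusted p = 0.0759).

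Of 18 healthy cord fibroblast genes 17 were lower in the set (median -3.67) and 16 in the other EAE fibroblasts (-2.92), with none higher; as stated, the list was drawn up with these libraries known. Myoc, myocilin, was at 2.01 and 2.06 CPM in the set, 13.1 and 11.7 in the other EAE fibroblasts and 258, 257 and 96.8 in Healthy (log2 fold change -6.62, SE 0.38, in the set). Dlk1, a Notch-related protein of growing tissue, was at 1.00 and 4.13 CPM in the set and 84.1 to 131 in Healthy (-5.78, SE 0.41). Comp, a cartilage matrix protein, had 3 UMIs in the set and 144 in Healthy, and was not called with no batch term (edgeR adjusted p = 0.136). The osteoblast or chondrocyte markers, Comp among them, summed to 334, 4840 and 279 CPM in Healthy 1, 2 and 3. Cluster 15, led by Comp, held 0.153%, 6.68% and 0.302% of the fibroblasts in no named set there, and 0.377% and 1.01% in EAE 1 and EAE 2. The part of such cells in the fall of Comp was not tested. Gfra1, a receptor subunit for the growth factor GDNF, was at 6.68 and 15.5 CPM against 124 to 293 (-4.44, SE 0.33), and Mmd2 (-4.49, SE 0.49) and Efhd1 (-4.41, SE 0.36) completed the 6 largest falls. Endoplasmic reticulum stress genes were lower in 7 of 16 in the set and 5 of 16 in the others.

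Cldn11 set both EAE classes apart. The other EAE fibroblasts had more of it than Healthy (log2 fold change 1.62, SE 0.29, edgeR adjusted p = 0.00521), while the set did not pass (-0.41, SE 0.34, adjusted p = 0.453). Barrier junction genes as a list were lower in 7 and higher in 2 of 16 in the set (median -0.65), and lower in 3 and higher in 3 of 16 in the others (0.11).

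The comparison with Healthy rests on few libraries. Leaving out EAE 1 gave 389 genes higher and 364 lower in the set, and leaving out Healthy 1 gave 1549 and 1430. Without EAE 1, acute phase genes were higher in 10 of 15 and healthy cord genes lower in 17 of 18, while interferon-induced genes were higher in 10 of 28, cytokine receptors in 2 of 14, cell cycle genes in 3 of 14 and MHC class I genes in 2 of 18. Endoplasmic reticulum stress genes were then lower in 1 of 16. Pdgfrb was not called without EAE 1 (1.17, SE 0.45, edgeR adjusted p = 0.0987). In the other EAE fibroblasts, interferon-induced genes were then higher in 5 of 28 and MHC class I genes in 2 of 19, and Hp and Il1rn were not called (adjusted p = 0.0555 and 0.0742). After thinning to 1000 UMIs, cell cycle genes were higher in 2 of 4 in the set, and with no batch term interferon-induced genes in 12 of 27.

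Healthy 1 and Healthy 2, which share barcodes, were also left out together, and the batch term then had to go as well. Healthy 3 alone then stood against EAE 1 and EAE 2, so calls and p-values in this setting hold no spread among Healthy libraries. In this setting, chosen after seeing the data, 704 genes were higher and 606 lower in the set; dropping the batch term alone gave 803 and 788. Acute phase genes were higher in 11 of 16, interferon-induced genes in 16 of 29, MHC class I genes in 11 of 19 and cell cycle genes in 14 of 19. Healthy cord genes were lower in 16 of 18, endoplasmic reticulum stress genes in 5 of 16, and barrier junction genes in 6 of 17 with 3 higher. The set's log2 fold change over Healthy 3 was 5.61 for Hp (SE 0.51), 4.78 for Il1rn (SE 0.49), 2.78 for Il1r1 (SE 0.36), -5.53 for Myoc (SE 0.44) and -0.53 for Cldn11 (SE 0.35), the last still not past the threshold (edgeR adjusted p = 0.364). Tnfsf11, F5, Aqp1 and Kng1 were called higher too. Several genes with Healthy 1 as the highest Healthy library had larger log2 fold changes with that library left out. They were Saa2 (4.08), C3 (7.69), Ccl2 (1.89), Il6 (3.35) and Cxcl1 (1.65). The C3 value rests on few Healthy UMIs, as 0.906% of the 331 Healthy 3 fibroblasts in no named set held any. Timp1 was not past the threshold in this setting. In the other EAE fibroblasts, interferon-induced genes were higher in 1 of 30 in this setting, and Cldn11, Il1rn and Pdgfrb were not called (edgeR adjusted p = 0.0589, 0.0603 and 0.208). With barcodes as deposited, Hp, Il1rn and Il1r1 were not called in the other EAE fibroblasts (adjusted p = 0.367, 0.281 and 0.118).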

How the data were processed

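The authors deposited 5 tables of raw UMI counts per gene and barcode. The tools named per the submitters' processing notes are Cell Ranger 2.1.1 and Seurat 3, with build mm10; their settings were not given in the sources used here. A barcode was kept from 200 genes upward if mitochondrial genes held no more than 10% of its UMIs. Gated fibroblasts had at least 2 UMIs over 4 collagen and decorin genes and did not reach 5 UMIs from 2 genes of an immune, mural, melanocyte, erythroid or endothelial gate; cells of the set were always included. No doublet caller was run.

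UMIs were summed by class and library and fitted in edgeR 4.0.16 (R 4.3.3) by robust quasi-likelihood with TMM scaling and filterByExpr. Benjamini-Hochberg adjustment ran over all genes tested, without the 16 genes of the rule, at a threshold of 0.05. The EAE fit held 8 sums (4 classes in 2 libraries) with the library as a block, which leaves 3 residual degrees of freedom. Comparisons with Healthy used 5 sums and a term for batch. The pairing comes from the design, as all 4 classes were taken from each library. Gene positions came from a GENCODE annotation of the same build. The script was tested on simulated counts. In the comparison with other EAE fibroblasts (10064 genes) it recovered 94.7% of 2-fold rises and 61.1% of falls to 0.5 of the level. Against Healthy (9530 genes) it recovered 42.6% and 30.4%. The first simulation changed 40 to 57 genes at each size of change and the second 43 to 50. Genes simulated without a change but called numbered 18 in the first and 10 in the second.

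The cells' rule and the gene lists were chosen with earlier results of these data known. Genes named were the 14 largest rises and falls with a mean of at least 20 CPM and the same direction in both libraries, up to 3 in each direction of each list at 10 CPM, the 6 largest each way in the other comparisons, and Pdgfra, Pdgfrb, Ccl2, Cxcl1, C3, Il6 and Slc22a17; further members of lists were named after their values were seen. Clusters used 2000 variable genes, 30 components, 15 neighbours and Leiden resolution 1 (scanpy 1.11.5, leidenalg 0.10.2). Alternatives were DESeq2 1.42.0, library totals, no filter, no block or batch term, thinning, stricter cells and members, barcodes as deposited, and leaving out libraries.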

Additional observations from a re-analysis of the deposited data

Results flagged for a closer look

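Some barcodes of Healthy 1 and Healthy 2 that were set aside as copies of a deeper barcode in another library also met the rule. In Healthy 1, 152 of 1541 set-aside copies met the rule for Lcn2 and Saa3 (9.86%, median 597.5 UMIs), and 150 of these barcodes belonged to the set in EAE 1. In Healthy 2, 134 of 683 copies met it (19.6%, median 782 UMIs), and 132 of these belonged to the set in EAE 1. Healthy 3 had 0 cells that met the rule. These counts lie in data that the main comparisons did not use and that entered only with barcodes as deposited. How the barcodes came to be shared, and whether these copies were cells of the healthy cords, was not tested.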

How the results depend on the processing

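Against the other EAE fibroblasts, 339 genes higher and 329 lower became 107 and 56 by DESeq2, 163 and 117 after thinning to 2000 UMIs, and 655 and 608 with the set and the other fibroblasts fitted alone; the lower count was 207 with the highest 5% of UMI counts left out and 157 without cluster 8 (added after seeing the data). Against the Tnc-led cells, 588 and 382 became 292 and 116 by DESeq2 and 335 and 218 after thinning. Against the Igfbp3-led cells, 439 and 496 became 212 and 253, and 200 and 204. DESeq2 had 71.57% of its calls higher against 60.62% by edgeR for the Tnc-led cells. Without the library block, the pairing of classes within a library, the counts were 5 and 1, 107 and 12, and 57 and 86 in these 3 comparisons. Sfrp4 turned from 0.66 to -0.109 on the log2 scale (edgeR adjusted p = 0.89) without cluster 8.

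For the set against Healthy, 992 and 1006 became 528 and 554 by DESeq2 and 391 and 328 after thinning to 1000 UMIs; the lower count was 606 without Healthy 1 and 2 and with no batch term (added after seeing the data), and 788 with no batch term alone. Leaving out 1 library gave 389 to 1549 higher and 364 to 1430 lower. For the other EAE fibroblasts against Healthy, 560 and 554 became 297 and 335 by DESeq2, 358 and 368 with no batch term, 209 and 177 after thinning, 220 and 348 with barcodes as deposited, and 169 and 165 without Healthy 1 and 2 and with no batch term, a change of both choices; with no filter on low counts 1031 were higher. Leaving out 1 library gave 210 to 933 higher and 223 to 786 lower. Library totals in place of TMM shifted the median of all genes to 0.115 and the higher share of calls from 50.27% to 62.78%. Fewer genes are tested after thinning; the other causes were not tested.

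The share of the set in EAE 1 was 25.8% over all kept barcodes, 27.0% at 10 UMIs, 22.3% after thinning and 34.3% with no comparison with the other gene sets; in EAE 2 it was 6.65% after thinning and 12.7% with no such comparison. No paired analysis was possible for EAE against Healthy because their labels share only the number 2 and EAE 1 carries none. Leaving out an EAE library leaves the fit of classes with no residual degrees of freedom, so it gave values without a test. Depth limits the low genes: Saa4, Tnfsf11, C6 and F5 had 0 to 3 UMIs in all Healthy fibroblasts.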

Other observations

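Retinoid genes of the set went both ways. Aldh1a2, the main retinoic acid synthase of the meninges, was at 726 and 646 CPM in the set (EAE 1, EAE 2) and 390 and 389 CPM in the other EAE fibroblasts, and at 198, 136 and 149.6 CPM in Healthy 1, 2 and 3. Its log2 fold change was 0.79 against the other EAE fibroblasts (SE 0.13, edgeR adjusted p = 0.000609). Cyp26b1, which breaks retinoic acid down, was higher too (0.74, SE 0.16, adjusted p = 0.0065; by DESeq2 adjusted p = 0.182). Aldh1a3, a further synthase, was at 26.7 and 20.7 CPM against 68.2 and 38.5 (-1.23, SE 0.19, adjusted p = 0.000197; after thinning to 2000 UMIs -0.77, adjusted p = 0.155), and Stra6, a receptor that takes up retinol, at 26.1 and 12.4 against 52.1 and 40.3 (-1.17, SE 0.20, adjusted p = 0.000623).

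Immediate early genes, which dissociation and stress can raise, were lower in 4 of 19 tested and higher in none, among them Fos (-0.48, SE 0.12) and Nr4a2 (-0.76, SE 0.18). By DESeq2 neither was called (adjusted p = 0.157 and 0.221). After thinning to 2000 UMIs Nr4a2 was at -0.16 (edgeR adjusted p = 0.858), and with the highest 5% of UMI counts left out Fos had an adjusted p of 0.0747. Ribosomal protein genes had 1 of 28 higher, Rps2 (0.51, SE 0.11, edgeR adjusted p = 0.00691; after thinning adjusted p = 0.0611).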
